A study of Homo sapiens with 24 samples.

Results

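This account describes the genes whose response to pladienolide B (PlaB) in TC32 cells stood apart from the response in TC71 and RDES cells. All 3 are established lines from Ewing sarcoma, a tumour of bone and soft tissue. Cells received 5 nM PlaB, or 0.1% DMSO vehicle as the comparison, in both cases for 24 h, and RNA was read on Illumina beadchips. The treatment protocol calls the comparison cells untreated, while each sample's own label names vehicle. The groups used are TC32 PlaB, TC32 vehicle, TC71 PlaB, TC71 vehicle, RDES PlaB and RDES vehicle, with 3 arrays each, or 18 of the 24 arrays of the series. The other 6 arrays are SKNMC cells under the same PlaB and vehicle conditions. They entered the normalisation, the filter on detection, the estimate of spread and a comparison at the end. No genetic change was made to any line, all cells grew in the same medium, and TC32 is 1 line, so it stands for itself and not for a class of tumours. Whether the numbered samples were separate cultures is not stated, and the p-values therefore cover the spread between these samples, which may be technical.

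PlaB is a natural product that binds the SF3b complex, the part of the U2 small nuclear ribonucleoprotein that recognises the branch point of an intron, and it inhibits pre-mRNA splicing. Transcripts that lose an exon or keep an intron are often degraded, so a probe level can fall, while genes with few or no introns and stress-response genes can rise. Ewing sarcoma cells depend in most cases on a fusion of EWSR1 with a gene of an ETS transcription factor such as FLI1. A probe reads the short stretch of RNA it matches, so fewer transcripts and a shift between transcript forms cannot be told apart here, nor can fewer cells of a kind and less RNA per cell.

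The measure used throughout is a difference of differences on the log2 scale: PlaB minus vehicle in TC32, minus the mean of PlaB minus vehicle in TC71 and in RDES. It is called the TC32 contrast. A positive value means that the response of TC32 lay above that of the other lines, whether TC32 rose more or fell less. Array values are background-corrected, quantile-normalised log2 intensities, on which an undetected probe sits low: KRTAP3-1, undetected in TC71, averaged 4.26 there with PlaB and with vehicle. Each test is limma's moderated test with Benjamini-Hochberg adjustment over 17557 tested probes and a threshold of 0.05. A gene was counted as particular to TC32 if its contrast was called, was at least 1 on the log2 scale (2-fold), and if TC32 also differed in the same direction from TC71 alone and from RDES alone. These comparisons share the TC32 arrays, so they are not independent of each other.

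The TC32 contrast was called for 1304 probes in the higher direction (7.43% of those tested) and for 1305 in the lower direction (also 7.43%). By gene, read from its brightest probe, 983 of 10882 were higher (9.03%) and 868 were lower (7.98%), and the median contrast of all genes was 0.007. Against TC71 alone, 1485 probes were higher (8.46%) and 1398 lower (7.96%), and against RDES alone 973 were higher (5.54%) and 1007 lower (5.74%). The rule left 136 particular probes (0.775%), 38 higher (0.216%) and 98 lower (0.558%), of which 13 have no gene symbol. By gene it left 98 (0.901%), 32 higher (0.294%) and 66 lower (0.607%). These counts and contrasts are what chose the genes, and are given as a description. Among them 90 encode proteins, 4 are snoRNAs, 2 are lncRNAs and 2 are transcribed pseudogenes. Just inside the 2-fold limit stood PPP6R2 at -1.01 and ZSCAN18 at -1.02, and just outside it stood VASN at 0.99 and TK1 at 0.99. The size limit depends on the background step: without it 10 probes were particular and higher and 15 particular and lower. Of the 98 genes, 20 stayed particular. All 98 kept the sign of the contrast, which says little, since the same arrays chose them.

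**Figure D1:**
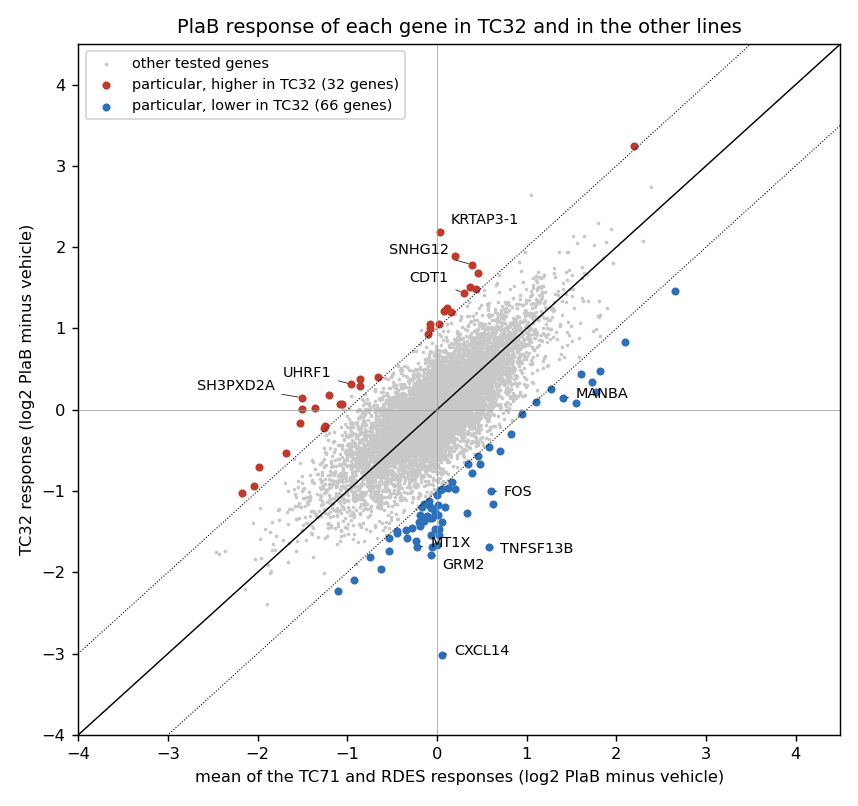
Each point is 1 of 10882 genes, with the mean PlaB response of TC71 and RDES on the x axis and the TC32 response on the y axis (both log2 PlaB minus vehicle). The solid line marks equal responses and the dotted lines a contrast of 1 either way. Red and blue points are the 32 higher and 66 lower particular genes, with KRTAP3-1 and CXCL14 at the far ends.

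The particular genes reached the rule in different ways. In 33 genes the response was called in TC32 and in neither other line (9 higher, 24 lower). In 16 the other lines both responded alike while TC32 was not called (10 higher, 6 lower). A further 16 moved the same way in all 3 lines but by different amounts (5 higher, 11 lower), and 9 moved one way in TC32 and the other way in both TC71 and RDES (3 higher, 6 lower). The remaining 24 were mixtures (5 higher, 19 lower). Detection on all 18 arrays held for 49 of the 98 (19 higher, 30 lower). The others were undetected on at least 1 array, and 7 of them were detected in TC32 and on no array of TC71 or RDES.

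Of the 27 gene lists, that of DNA replication had the largest share called higher in the TC32 contrast. These genes encode the origin licensing factors, the helicase, the polymerases and the enzymes that supply deoxynucleotides, and proliferating cells switch them on together before S phase. Of 45 measured, 19 were called higher in the TC32 contrast and 0 lower, or 42.2% against 9.03% of all genes, with a median of 0.38 against 0.007. Over 7 ways of scaling the arrays the median ran between 0.19 and 0.40, and the number called higher between 9 and 21. PlaB lowered many members in every line: 22 were called down and 5 up in TC32 (against 23.8% down and 21.5% up of all genes there), 33 down and 2 up in TC71 (25.2% and 22.8%), and 31 down and 1 up in RDES (22.5% and 21.4%). The median response was -0.30 in TC32, -0.58 in TC71 and -0.78 in RDES.

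CDC45 is part of the helicase that unwinds the origin. It read 7.11, 7.11 and 7.25 on TC32 PlaB arrays, against 8.03, 8.22 and 8.30 on TC32 vehicle arrays. TC71 gave 6.26, 6.13 and 6.11 with PlaB, against 8.44, 8.44 and 8.35 with vehicle. RDES gave 4.81, 5.09 and 5.07 with PlaB, against 7.20, 7.01 and 7.07 with vehicle. PlaB and vehicle arrays did not overlap in any of the 3 lines, and PlaB was below vehicle in each. CDC45 fell by 1.02 in TC32, by 2.25 in TC71 and by 2.10 in RDES, which gives a contrast of 1.15 ± 0.14 (SE, adjusted p = 8.2e-07). PRIM1, the catalytic subunit of the primase that starts each new DNA strand, showed the same order. It fell by 0.53 in TC32, 1.57 in TC71 and 1.79 in RDES, with a contrast of 1.15 ± 0.14, and its second probe gave 0.83. RRM2, the small subunit of ribonucleotide reductase, fell by 0.94 in TC32, 2.03 in TC71 and 2.06 in RDES, with a contrast of 1.10 ± 0.16. The thymidine enzymes TK1 and TYMS had contrasts of 0.99 and 0.87, and the polymerase subunit POLE and the helicase subunit GINS3 had 0.87 and 0.80.

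CDT1 loads the helicase onto origins and is destroyed once S phase begins. It was 1 of 5 members that rose in TC32. TC32 read 7.81, 8.25 and 7.61 with PlaB, against 6.57, 6.36 and 6.44 with vehicle. TC71 read 7.45, 7.60 and 7.65 with PlaB, against 7.11, 6.96 and 6.86 with vehicle. RDES read 6.70, 6.88 and 6.45 with PlaB, against 6.53, 6.67 and 6.80 with vehicle. The groups were apart in TC32 and in TC71, and overlapped in RDES. The rise was 1.43 in TC32 (adjusted p = 5.8e-10), 0.59 in TC71 (adjusted p = 5.7e-04) and 0.01 in RDES (adjusted p = 0.97), for a contrast of 1.14 ± 0.16 (adjusted p = 1.4e-05).

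**Figure D2:**
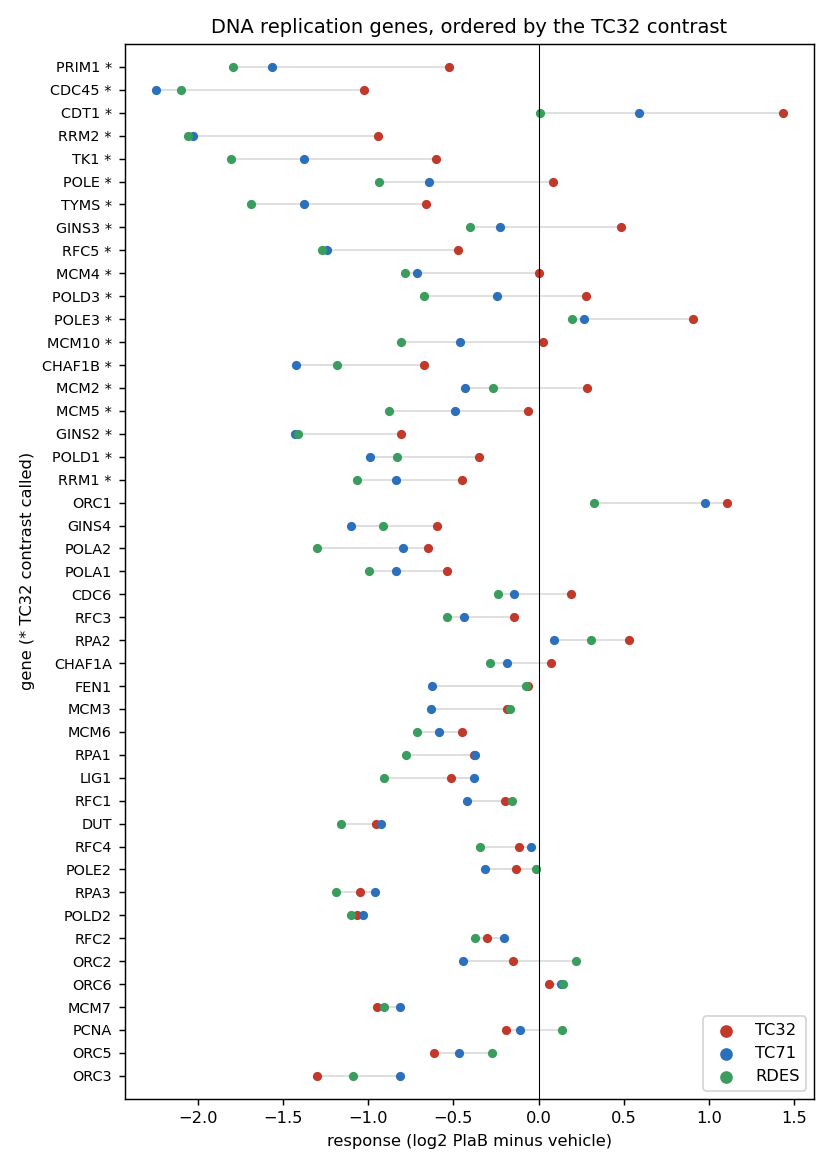
The PlaB response (log2 PlaB minus vehicle, x axis) of each of the 45 measured DNA replication genes in TC32 (red), TC71 (blue) and RDES (green), in descending order of the TC32 contrast. Stars mark the 19 genes with a called contrast, all higher; in PRIM1, CDC45 and RRM2 the red point lies at least 1 log2 unit to the right of both others.

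Promoters of these genes are classical targets of E2F factors, whose site reads close to TTTCCCGC. The 250 bases before the transcription start (RefSeq, build GRCh38.p14) were searched on both strands for TTTCCCGC, TTTCGCGC, TTTGCCGC and TTTGGCGC. At least 1 of these words stood in 14 of 52 windows of 39 replication genes with an entry (26.9%), against 2.79% of 35116 windows of all genes and 4.19% of the windows of tested genes. Among the members called higher the share was 17.4% of 23 windows, and among those not called it was 34.5% of 29. CDT1 and GINS2 are shown as called members that hold a match, in capitals, from chr16:88803539-88803788 on the plus strand and chr16:85688955-85689204 on the minus strand.
CDT1: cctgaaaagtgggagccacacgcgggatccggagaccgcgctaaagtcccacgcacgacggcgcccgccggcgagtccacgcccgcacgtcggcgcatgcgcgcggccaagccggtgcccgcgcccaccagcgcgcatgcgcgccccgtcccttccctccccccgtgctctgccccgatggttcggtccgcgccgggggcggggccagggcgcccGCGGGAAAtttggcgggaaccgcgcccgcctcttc
GINS2: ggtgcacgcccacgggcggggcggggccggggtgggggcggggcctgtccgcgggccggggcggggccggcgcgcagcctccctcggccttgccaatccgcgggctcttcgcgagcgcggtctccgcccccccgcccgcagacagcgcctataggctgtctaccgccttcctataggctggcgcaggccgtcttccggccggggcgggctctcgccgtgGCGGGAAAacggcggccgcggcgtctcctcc
Each window holds 1 match, read as the reverse complement of the first word, and it begins 35 bases before the start of CDT1 and 31 bases before that of GINS2.

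Of 24 measured G1/S cyclins, CDKs and regulators, 7 were higher (29.2%) and 1 lower (4.17%), against 9.03% higher and 7.98% lower of all genes. Their median was 0.30 and ran between 0.05 and 0.30 over the scalings. The E2F partner TFDP1 had a contrast of 0.92, with a second probe at 0.43 that was not called against TC71 alone, and the factors E2F2 and E2F7, an activator and a repressor of the same promoters, had 0.85 and 0.76. The only member called lower was CDKN1A (p21), an inhibitor of cyclin-dependent kinases, at -0.68. Of 43 G2/M and mitosis genes, 10 were higher (23.3%) and 0 lower, with a median of 0.17 that was -0.02 under median centring, where 3 were higher and 1 lower. The list's median difference was -5e-04 from TC71 and 0.36 from RDES, and 19 members rose in TC32, 17 in TC71, 6 in RDES and 27 in SKNMC. CDC25A, the phosphatase that activates CDKs, had 0.86 (second probe 0.08, not called), the kinesins KIF4A and KIF11 had 0.74 and 0.73, and the checkpoint protein MAD2L1 had 0.68 (second probe 0.03, not called). OIP5, a subunit of the Mis18 complex that prepares centromeres for new CENP-A, fell by 0.71 in TC32, 2.11 in TC71 and 1.85 in RDES. Its contrast was 1.27 ± 0.15 (adjusted p = 5.0e-07), while its second probe gave 0.31 and was not called.

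UHRF1 and CCND3 both rose in TC32 and fell in TC71 and RDES. UHRF1 recognises hemimethylated DNA behind the replication fork and brings in the maintenance methyltransferase. It read 9.36, 9.33 and 9.40 in TC32 with PlaB, against 9.06, 9.12 and 8.97 with vehicle. TC71 gave 8.12, 8.09 and 8.33 with PlaB, against 8.61, 9.02 and 9.06 with vehicle. RDES gave 7.92, 7.93 and 7.98 with PlaB, against 9.15, 9.08 and 9.19 with vehicle. PlaB lay above vehicle on every TC32 array and below it on every TC71 and RDES array. UHRF1 rose by 0.31 in TC32 (adjusted p = 0.039) and fell by 0.72 in TC71 and by 1.20 in RDES, with a contrast of 1.27 ± 0.15 (adjusted p = 7.9e-07). Its second probe had a smaller contrast of 0.77, and there the TC32 response of 0.27 was not called. CCND3, cyclin D3, rose by 0.40 in TC32 and fell by 0.72 in TC71 and by 0.60 in RDES, with a contrast of 1.06 ± 0.14. FANCL, the ubiquitin ligase of the Fanconi anaemia DNA repair pathway, stayed near its vehicle level in TC32 (0.03, adjusted p = 0.91) and fell by 1.28 in TC71 and 1.45 in RDES, for a contrast of 1.39 ± 0.16. H4C3, a histone H4 gene without introns, had a response of -0.16 in TC32 that was not called and fell by 1.54 in TC71 and 1.53 in RDES, with a contrast of 1.37 ± 0.16. Of the 25 measured histone genes 1 was called higher (H4C3, 4%) and 4 lower (16%), against 9.03% higher and 7.98% lower of all genes. Their median was -0.18 and ran between -0.19 and 0.003 over the scalings. Among the lower ones were the replacement histone H3-3B at -0.71 and H2AC19 at -0.77, which differed from TC71 and not from RDES (0.23, adjusted p = 0.50).

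**Figure D3:**
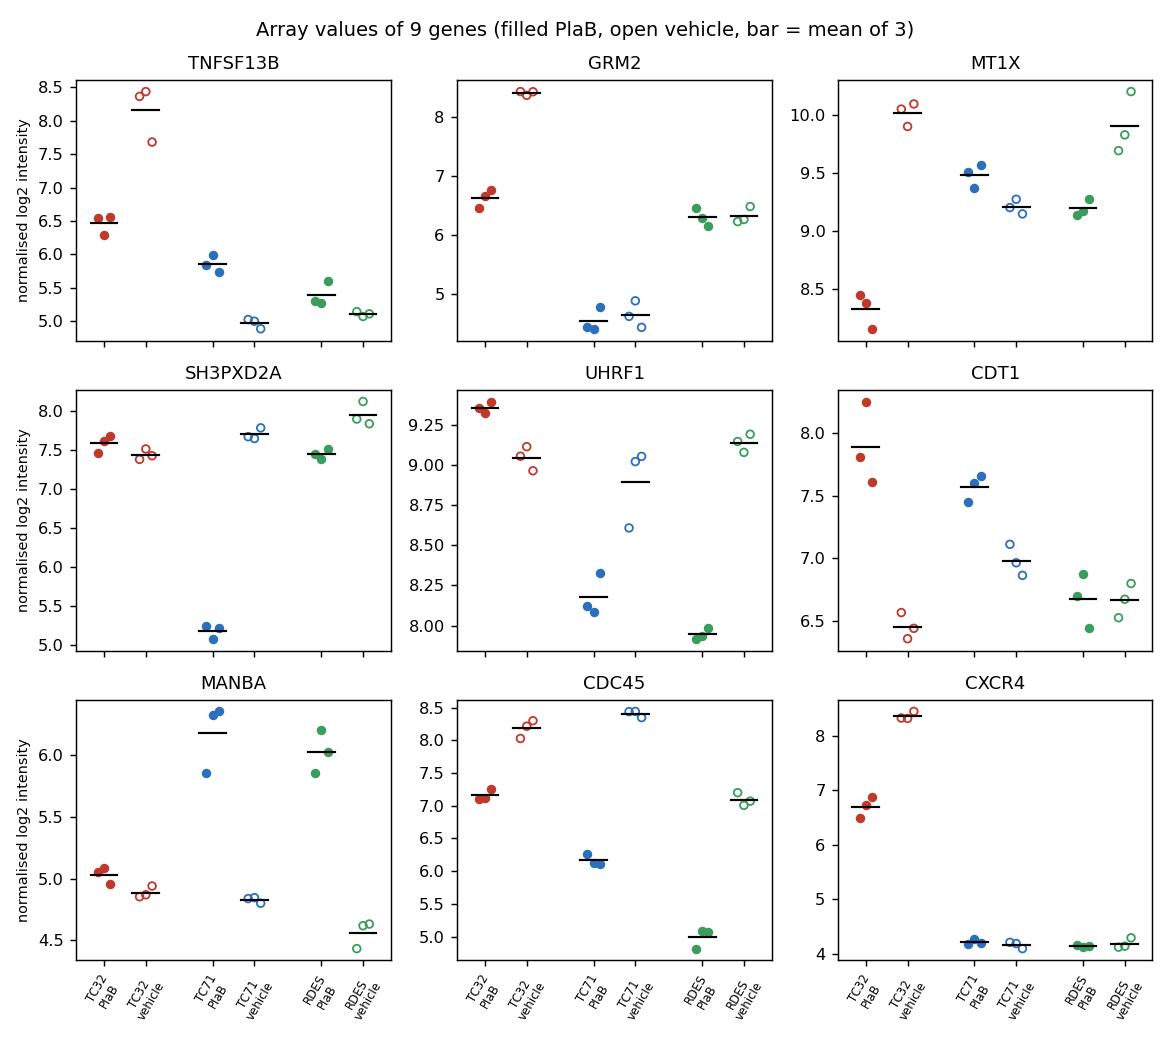
Normalised log2 intensity (y axis, a separate range in each panel) of 9 genes on each of 18 arrays, by line and treatment, with filled points for PlaB, open points for vehicle and bars for the mean of 3. TNFSF13B, GRM2, MT1X and CXCR4 drop with PlaB in TC32, SH3PXD2A and UHRF1 drop only in the other lines, and MANBA rises by more in them.

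SH3PXD2A had the highest contrast of the 49 particular genes detected on all 18 arrays. It encodes TKS5, a scaffold of the invasive membrane protrusions called invadopodia. The TC32 arrays read 7.47, 7.62 and 7.69 with PlaB, against 7.38, 7.52 and 7.43 with vehicle. The TC71 arrays read 5.25, 5.08 and 5.22 with PlaB, against 7.67, 7.65 and 7.79 with vehicle. The RDES arrays read 7.46, 7.39 and 7.52 with PlaB, against 7.90, 8.13 and 7.84 with vehicle. PlaB and vehicle overlapped in TC32 and were apart in the other lines, with the wider gap in TC71. Its contrast of 1.66 ± 0.14 (adjusted p = 1.4e-09) joins a difference of 2.67 from TC71 and of 0.65 from RDES. SIRPA, the receptor for the CD47 signal, also differed more from TC71: it fell by 1.41 there and by 0.32 in RDES, and its TC32 response of 0.30 was not called. Its second probe differed about equally from TC71 (0.72) and from RDES (0.64). SOX18, a transcription factor of endothelial development, rose by 0.38 in TC32, where its vehicle arrays read 4.55 to 4.64, and fell by 0.97 in TC71 and 0.73 in RDES, with a contrast of 1.23 ± 0.14.

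Among the lower genes, TNFSF13B had the lowest contrast of the particular genes detected on all 18 arrays. It encodes BAFF, a cytokine that sustains B cells. The TC32 arrays read 6.54, 6.29 and 6.56 with PlaB, against 8.36, 8.43 and 7.68 with vehicle. The TC71 arrays read 5.85, 5.99 and 5.74 with PlaB, against 5.03, 5.00 and 4.89 with vehicle. The RDES arrays read 5.30, 5.28 and 5.60 with PlaB, against 5.15, 5.07 and 5.11 with vehicle. No groups overlapped: PlaB was below vehicle in TC32 and above it in both other lines, which started from lower vehicle levels. TNFSF13B fell by 1.69 in TC32, rose by 0.89 in TC71 and had 0.28 in RDES, which was not called. The contrast was -2.28 ± 0.18 (adjusted p = 2.9e-10), and a second probe gave -2.45.

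GRM2, a metabotropic glutamate receptor that lowers cyclic AMP, was called down in TC32 and not called in TC71 or RDES. It read 6.46, 6.65 and 6.75 in TC32 with PlaB, against 8.43, 8.36 and 8.43 with vehicle. TC71 gave 4.44, 4.41 and 4.78 with PlaB, against 4.62, 4.88 and 4.44 with vehicle, and RDES gave 6.45, 6.29 and 6.16 with PlaB, against 6.23, 6.26 and 6.48 with vehicle. The TC32 groups were well apart and those of the other lines overlapped. The fall in TC32 was 1.78 (3.44-fold), with responses of -0.10 in TC71 and -0.02 in RDES, and the contrast was -1.72 ± 0.16 (adjusted p = 1.6e-08). ADGRG2, an adhesion G protein-coupled receptor, fell by 1.38 in TC32 with a contrast of -1.24 ± 0.14, and its second probe gave -1.36. CSF2RA, a receptor subunit for the growth factor GM-CSF, fell by 0.50 in TC32 and rose by 0.67 in TC71 and 0.73 in RDES. Its contrast was -1.20 ± 0.23, its TC32 arrays overlapped, and its second probe gave -0.47 and was not called.

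MT1X and MT1F, metallothioneins that bind zinc and copper and are switched on by metals, fell in TC32 and had responses below those of the other lines. MT1X read 8.44, 8.38 and 8.15 in TC32 with PlaB, against 10.05, 9.90 and 10.09 with vehicle. TC71 gave 9.51, 9.37 and 9.57 with PlaB, against 9.20, 9.27 and 9.14 with vehicle, and RDES gave 9.14, 9.17 and 9.28 with PlaB, against 9.69, 9.83 and 10.20 with vehicle. PlaB was below vehicle in TC32 and RDES without overlap, and above it in TC71. MT1X fell by 1.69 in TC32 (3.22-fold) and by 0.71 in RDES, and its TC71 response of 0.28 was not called, so the contrast was -1.47 ± 0.16 (adjusted p = 3.4e-07). MT1F fell by 1.20 in TC32 and rose by 0.46 in TC71, with -0.27 in RDES that was not called. Its contrast was -1.29 ± 0.14 (adjusted p = 3.8e-07).

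Metallothionein promoters carry metal response elements, bound by the zinc-sensing factor MTF1, with the core TGCNCNC. MT1X and, as the other metallothionein with an entry, MT2A are shown with matches on either strand in capitals, from chr16:56682220-56682469 and chr16:56608334-56608583 on the plus strand of GRCh38.p14 (RefSeq).
MT1X: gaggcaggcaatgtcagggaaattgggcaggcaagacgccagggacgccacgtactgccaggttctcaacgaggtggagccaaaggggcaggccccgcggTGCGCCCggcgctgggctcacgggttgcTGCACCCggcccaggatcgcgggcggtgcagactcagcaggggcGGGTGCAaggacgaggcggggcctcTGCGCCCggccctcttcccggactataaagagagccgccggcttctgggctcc
MT2A: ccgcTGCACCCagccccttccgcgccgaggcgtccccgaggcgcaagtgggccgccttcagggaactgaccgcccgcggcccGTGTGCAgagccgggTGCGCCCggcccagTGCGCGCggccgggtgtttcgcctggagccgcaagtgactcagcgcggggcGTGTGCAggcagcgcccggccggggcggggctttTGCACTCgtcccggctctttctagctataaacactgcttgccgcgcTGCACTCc
The window of MT1X holds 4 matches and that of MT2A holds 7. A single match is common, since 49.1% of the windows of all genes and 55.5% of those of tested genes have at least 1. MT2A, taken in after its values were seen, had a contrast of -0.80 (adjusted p = 8.7e-04), and its difference from RDES alone was not called.

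In a further set the other lines rose and TC32 hardly did. MANBA, the lysosomal enzyme that cleaves mannose from glycoprotein sugar chains, is an example. It read 5.05, 5.09 and 4.96 in TC32 with PlaB, against 4.85, 4.87 and 4.94 with vehicle. TC71 gave 5.85, 6.32 and 6.35 with PlaB, against 4.84, 4.85 and 4.80 with vehicle, and RDES gave 5.85, 6.20 and 6.02 with PlaB, against 4.43, 4.62 and 4.63 with vehicle. The TC32 arrays did not overlap either, yet differed far less. MANBA rose by 1.35 in TC71 and 1.46 in RDES, with 0.14 in TC32 that was not called, and its contrast was -1.26 ± 0.15 (adjusted p = 1.2e-06). TSPYL2, of the nucleosome assembly protein family, rose by 0.34 in TC32, 1.80 in TC71 and 1.65 in RDES, with a contrast of -1.38 ± 0.16. Its 4 other probes gave -1.39, -0.85, -0.27 and -0.23, the last 2 not called. The brightest probe of N4BP2L2 rose by 1.70 in TC71 and 1.85 in RDES and had 0.22 in TC32, not called, with a contrast of -1.55 ± 0.17. Of the gene's 2 other probes, 1 gave -1.09 and the other 0.03, which was not called. The latter probe was called down in each line, at -0.60 in TC32, -0.81 in TC71 and -0.46 in RDES. A rise is thus not shown for the gene as a whole. SGK1, a kinase of salt and stress signalling, fell by 0.29 in TC32 and rose by 0.50 in TC71 and 1.15 in RDES, with a contrast of -1.12 ± 0.12 and other probes at -1.26 and -1.05.

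Some particular genes were detected in TC32 and on no array of TC71 or RDES, so their contrast is in effect the TC32 response. CXCR4, the receptor for the chemokine CXCL12, read 6.50, 6.73 and 6.87 in TC32 with PlaB, against 8.32, 8.31 and 8.44 with vehicle, while all TC71 and RDES arrays read 4.09 to 4.29 and none detected it. It fell by 1.66 in TC32, with a contrast of -1.67 ± 0.13. PDE7B, a phosphodiesterase that breaks down cyclic AMP, fell by 1.47 and NWD1 by 1.26. TTC12, known for the assembly of ciliary dynein, was detected on all 3 TC32 vehicle arrays and on none with PlaB, a fall of at least 2.01-fold. KRTAP3-1, a keratin-associated protein of hair, went the other way. It read 7.25, 7.44 and 7.35 in TC32 with PlaB, against 4.86, 5.23 and 5.38 with vehicle, a rise of 2.19 (4.57-fold). CXCL14, a chemokine named here after its values were seen, had the lowest contrast of all genes. It read 6.02, 5.9998 and 5.93 in TC32 with PlaB, against 8.92, 8.93 and 9.14 with vehicle, and 4.13 to 4.44 on the arrays of TC71 and RDES, of which 1 RDES PlaB array detected it. With levels at background in TC71 and RDES, a fall there could not have been measured for these genes. In the opposite case HERC5, the ligase for the ubiquitin-like protein ISG15, was detected on all arrays of TC71 and RDES and fell there by 1.11 and 1.41, while TC32 detected it on 3 vehicle and 0 PlaB arrays, a fall of at least 1.05-fold. Its contrast was 1.03, with a TC32 vehicle level of 4.46 to 4.71.

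Genes of RNA processing were among the particular ones in both directions. SNHG12, a long noncoding transcript that hosts several snoRNAs, rose more in TC32. It read 7.22, 7.17 and 6.81 in TC32 with PlaB, against 5.61, 5.18 and 5.06 with vehicle. TC71 gave 5.29, 5.29 and 5.33 with PlaB, against 4.70, 4.40 and 4.97 with vehicle, and RDES gave 5.13, 5.36 and 4.98 with PlaB, against 5.01, 5.13 and 4.85 with vehicle. The RDES groups overlapped and those of the other lines did not. The rise was 1.79 in TC32 and 0.61 in TC71, with 0.16 in RDES that was not called, and the contrast was 1.40 ± 0.19 (adjusted p = 8.0e-06). SNORA61, a snoRNA encoded within SNHG12, rose by 1.48 in TC32 and 0.64 in TC71, with 0.23 in RDES, not called, and a contrast of 1.04 ± 0.14. Probes of snoRNAs were not checked for whether they read the mature RNA or its precursor. Of 116 snoRNA and scaRNA genes, 19 were higher (16.4%) and 5 lower (4.31%), against 9.03% higher and 7.98% lower of all genes, and the number higher ran between 7 and 20 over the scalings. The list's median difference was -0.09 from TC71 and 0.17 from RDES. SNORD3C at 1.21 and SNORD25 at -1.20 were the ends. SNORD25 rose by 1.46 in TC32, 2.99 in TC71 and 2.33 in RDES. Of the 15 noncoding snoRNA host genes 3 were higher (20%) and 0 lower, with SNHG4 at 0.95 and SNHG5 at 0.39. A second SNHG5 probe was called the other way, at -0.52.

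SNAPC1, a subunit of the complex that starts transcription of small nuclear RNA genes, rose by 1.51 in TC32 and 0.55 in RDES, with 0.18 in TC71, not called, and a contrast of 1.15 ± 0.16 (second probe 0.72). CDC40, a splicing factor of the second catalytic step, fell by 2.10 in TC32 (4.29-fold), 0.65 in TC71 and 1.19 in RDES, for a contrast of -1.18 ± 0.15. PlaB was below vehicle without overlap in all 3 lines. Of 27 SF3a, SF3b and U2-associated factors, 2 were higher (7.41%) and 0 lower, against 9.03% higher and 7.98% lower of all genes. The list's median was 0.07 and ran between -0.21 and 0.07 over the scalings. The SF3b subunit PHF5A, next to the drug's binding pocket, had 0.70 (second probe 0.49, not called) and SF3B4 had 0.36, while SF3B1, the subunit that forms most of that pocket, had -0.21 ± 0.14 (adjusted p = 0.35). Both calls were lost under median centring, at 0.43 and 0.09. Of 45 SR proteins and hnRNPs, 6 were higher (13.3%) and 3 lower (6.67%), and under median centring 0 were higher and 3 lower. PTBP1 had 0.63, and 0.31 without a call under median centring. HNRNPH3 had -0.59, a call lost under several scalings, and a second probe at -0.22 that was not called. HNRNPH1 had 0.17 ± 0.13 (adjusted p = 0.43). Its second probe gave -0.46, not called, though its difference from TC71 alone was called (-0.96, adjusted p = 0.011).

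Stress and signalling genes were split. FOS, an immediate-early transcription factor, read 6.85, 6.94 and 7.01 in TC32 with PlaB, against 7.97, 8.004 and 7.83 with vehicle. TC71 gave 5.28, 4.84 and 5.18 with PlaB, against 4.26, 4.16 and 4.15 with vehicle, and RDES gave 5.17, 5.32 and 5.31 with PlaB, against 5.22, 5.02 and 4.67 with vehicle. TC32 PlaB lay below its vehicle, TC71 PlaB lay above it, and RDES overlapped. No TC71 vehicle array detected FOS, so the rise there was at least 1.66-fold. FOS fell by 0.9994 in TC32 and rose by 0.30 in RDES (adjusted p = 0.048), with a contrast of -1.60 ± 0.15 (adjusted p = 1.1e-08). Of 27 immediate-early genes 5 were lower (18.5%) and 4 higher (14.8%), against 7.98% lower and 9.03% higher of all genes. EGR1 had -0.79, CCN1, a matricellular protein, had 0.75 and MYC had 0.71. The second MYC probe gave 0.03 and was not called. DDIT3, which encodes the stress factor CHOP, rose by 0.96 in TC32, 2.58 in TC71 and 0.90 in RDES. Its contrast of -0.77 ± 0.13 was thus a difference from TC71 (-1.61) and not from RDES (0.06, adjusted p = 0.84). Of 35 ATF4 and CHOP stress genes, 8 were higher (22.9%) and 3 lower (8.57%), against 9.03% higher and 7.98% lower of all genes, and under median centring 3 were higher and 5 lower. The list's median difference was -0.04 from TC71 and 0.33 from RDES. The higher ones included the serine synthesis enzymes PHGDH (0.85), PSPH (0.77) and PSAT1 (0.70). Among 24 ER chaperones and sensors 3 were higher (12.5%) and 0 lower, with XBP1 at 0.69. Among 24 cytosolic heat shock genes 5 were higher (20.8%) and 0 lower, with DNAJB6 at 0.95 (second probe 0.04, not called). Under median centring XBP1, MYC, HSPA8 and DNAJA1 were no longer called (at 0.47, 0.45, 0.30 and 0.29), and the ER list had 0 called higher.

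Of 26 p53 target genes, 2 were higher and 2 lower in the TC32 contrast, near the 9.03% and 7.98% of all genes, with a median of -0.17. CDKN1A read 7.85, 8.04 and 8.25 in TC32 with PlaB, against 8.87, 8.93 and 8.83 with vehicle. TC71 gave 6.06, 6.06 and 5.98 with PlaB, against 5.65, 5.48 and 5.64 with vehicle, and RDES gave 4.63, 4.60 and 4.45 with PlaB, against 5.23, 5.15 and 5.56 with vehicle. It fell without overlap in TC32 and RDES, by 0.83 and 0.75, and rose by 0.44 in TC71. The contrast of -0.68 ± 0.15 (adjusted p = 0.0021) was therefore a difference from TC71 (-1.27) and not from RDES (-0.08, adjusted p = 0.83). TP53INP1 had -0.79 and PHLDA3 had 0.66, the second of which was not called under median centring. TP53I3 had 0.80, with a TC32 level that no PlaB array detected and another probe at -0.16, not called. The apoptosis genes BAX and BBC3 had 0.23 and 0.0048 and SESN1 had -0.33, all not called. Of 17 BCL2 family genes 2 were higher (11.8%) and 1 lower (5.88%), with the survival gene BCL2L2 at 0.76, BID at 0.67 and BNIP3L at -0.65. The second BID probe gave 0.37 and was not called, nor was BID's first under median centring.

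Interferon response genes were called lower in 9 of 32 cases (28.1%) and higher in 2 (6.25%), against 7.98% and 9.03% of all genes. Only 8 of the 32 were detected on all 18 arrays. The list's median ran between -0.15 and 0.04 over the scalings. PSMB8, a subunit of the immunoproteasome, read 5.90, 5.87 and 6.14 in TC32 with PlaB, against 6.97, 7.11 and 7.31 with vehicle. It read 4.16 to 4.62 on the TC71 and RDES arrays, where no PlaB array and 2 vehicle arrays of each line detected it. It fell by 1.16 in TC32 with a contrast of -1.02 ± 0.15. Its 2 other probes gave -0.93 and -0.64, both called but short of the 2-fold limit. PSMB9, another subunit, was detected on all 3 TC32 vehicle arrays and on none with PlaB, a fall of at least 1.69-fold, with a contrast of -0.95. PSMB9 was detected on 1 PlaB and 1 vehicle array of TC71 and on none of RDES. With PSMB8 and PSMB9 this close to background in TC71 and RDES, a fall there could hardly have been measured. IFI35 had a contrast of -0.85.

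The fusion-related lists had no shared direction. Of 42 EWS-FLI1-activated genes, 8 were higher (19%) and 7 lower (16.7%), against 9.03% higher and 7.98% lower of all genes, with a median of 0.07 that lay between -0.14 and 0.08 over the scalings. STEAP2, a metalloreductase, had 0.66 with a second probe at 0.95, and TNC, a matrix protein, had -0.92 with a second probe at -1.10. ID2, an inhibitor of basic helix-loop-helix factors, fell by 0.97 in TC32 and rose by 0.59 in TC71, with -0.19 in RDES, not called. Its contrast was -1.17 ± 0.16 and its second probe gave -1.10. NKX2-2, a homeobox factor used to diagnose Ewing sarcoma, had -0.44 (adjusted p = 0.038). EWSR1 had 0.06, PRKCB -0.14 and CCND1 0.30, none called, although 2 of the 4 other PRKCB probes were called at -0.87 and -0.81. Of 31 EWS-FLI1-repressed genes 3 were higher (9.68%) and 6 lower (19.4%). The matrix genes among them split: COL3A1, a fibrillar collagen, fell by 1.55 in TC32 with a contrast of -1.48 ± 0.17, and FN1, fibronectin, rose by 1.25 with a contrast of 1.14 ± 0.12 (second probe 1.15), though no TC71 array detected FN1. COL3A1 read 5.25 to 5.46 with PlaB in TC32, against 6.68 to 7.09 with vehicle, while FN1 read 6.16 to 6.50 with PlaB, against 5.01 to 5.19 with vehicle. Of 34 mesenchymal and matrix genes, 13 of them detected on all 18 arrays, 5 were higher (14.7%) and 7 lower (20.6%), against 9.03% higher and 7.98% lower of all genes. TGFBI had -0.98.

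Neural and neural-crest transcription factors were lower in 8 of 28 cases (28.6%) and higher in 3 (10.7%), against 9.03% higher and 7.98% lower of all genes. Only 14 of the 28 were detected on all 18 arrays. The list had a median between -0.29 and -0.09. HEY1, a Notch target, fell by 0.78 in TC32 and rose by 0.37 in TC71 and at least 1.21-fold in RDES, where no vehicle array detected it, with a contrast of -1.17 ± 0.14 and a second probe at -0.46 that was not called. SOX11 had -0.98 with a second probe at -0.06, not called. PAX7, a factor of muscle stem cells, fell by 1.52 in TC71 and 0.89 in RDES. Its contrast was 1.38 ± 0.17, but TC32 read 4.21 to 4.92 with PlaB and 4.20 to 4.53 with vehicle, close to the level of undetected probes, and its second probe gave 0.15, not called.

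The remaining lists are set against 9.03% higher and 7.98% lower of all genes. Oxidative phosphorylation genes were called higher in 4 of 68 cases (5.88%) and lower in 5 (7.35%), with COX7B at -0.95. Cytosolic ribosomal protein genes were higher in 2 of 68 (2.94%) and lower in 8 (11.8%), with RPS18 at -0.88 and RPL5 at -0.88. Cholesterol synthesis and uptake genes were higher in 3 of 20 (15%) and lower in 3 (15%). Hypoxia and glycolysis genes were higher in 2 of 31 (6.45%) and lower in 3 (9.68%), with EPAS1 at -0.99.

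**Figure D4:**
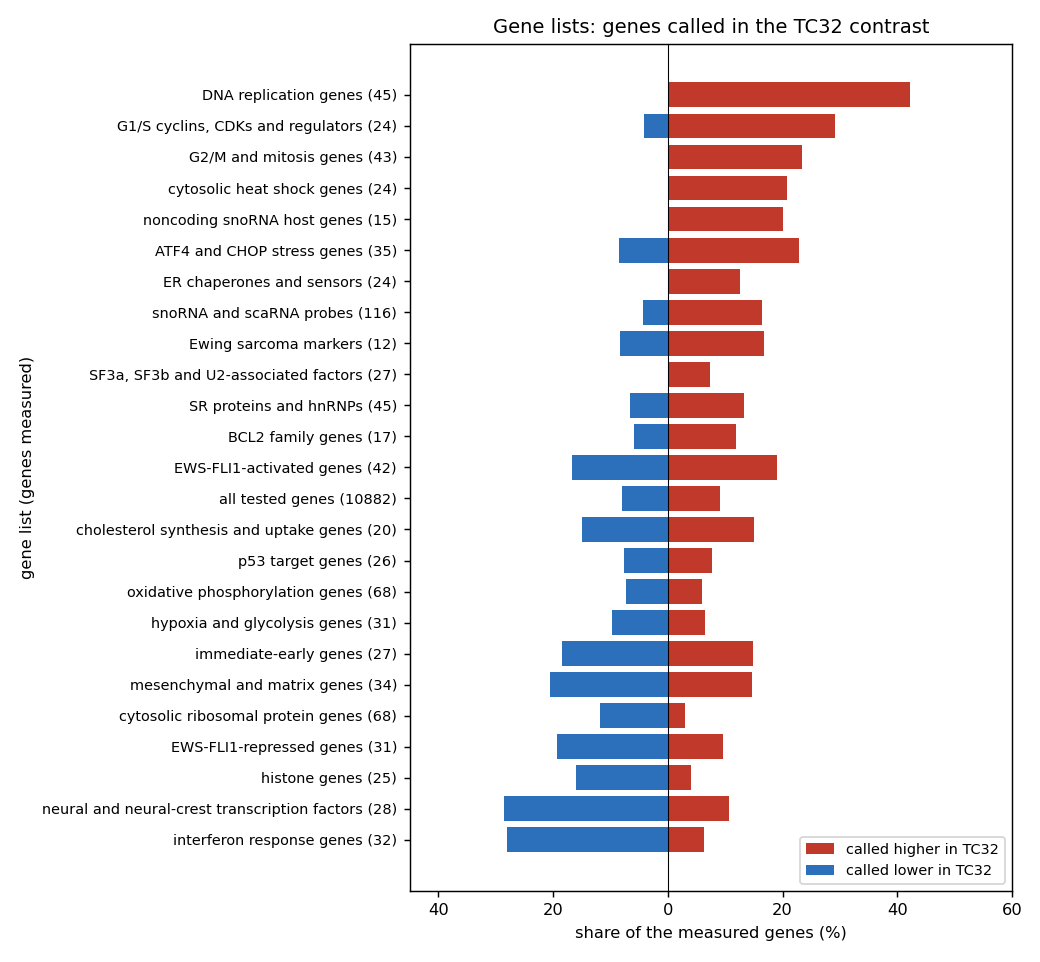
Share of the measured genes of each list (x axis, %) called higher (red, to the right) or lower (blue, to the left) in the TC32 contrast, for lists with 10 or more measured genes (number in brackets) and for all 10882 tested genes. DNA replication genes have the widest red bar, 42.2%, without a blue one.

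SKNMC was not part of the rule, so its arrays show how a further Ewing sarcoma line responded at the particular genes. Of the 32 higher genes, 11 rose in SKNMC, 14 fell and 7 were not called. Of the 66 lower genes, 21 rose, 23 fell and 22 were not called. Over all genes, SKNMC called 26.2% up and 31.3% down. Each SKNMC response was also placed by the midpoint between the TC32 response and the mean of the TC71 and RDES responses. It lay on the TC32 side for 11 of the 32 higher and 10 of the 66 lower genes. It lay on the side of TC71 and RDES for 21 and 56. The midpoint is built from the same responses that chose these genes, which favours the side of TC71 and RDES. These counts therefore cannot decide whether TC32 is the exception among the lines. Genes that no SKNMC array detected stand among those not called, and they were given a side too. In SKNMC the response was -1.95 at FANCL, -2.21 at PRIM1, 2.25 at MANBA and 1.90 at TSPYL2. CDT1 had 1.43 in TC32 and 1.73 in SKNMC, and UHRF1 had 0.31 in TC32 and 0.27 in SKNMC, where it was not called. SNORA61 rose by 1.48 in TC32 and by 1.30 in SKNMC. The replication list had 22 members down and 10 up in SKNMC. Its median there was -0.29, against -0.30 in TC32, -0.58 in TC71 and -0.78 in RDES.

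**Figure D5:**
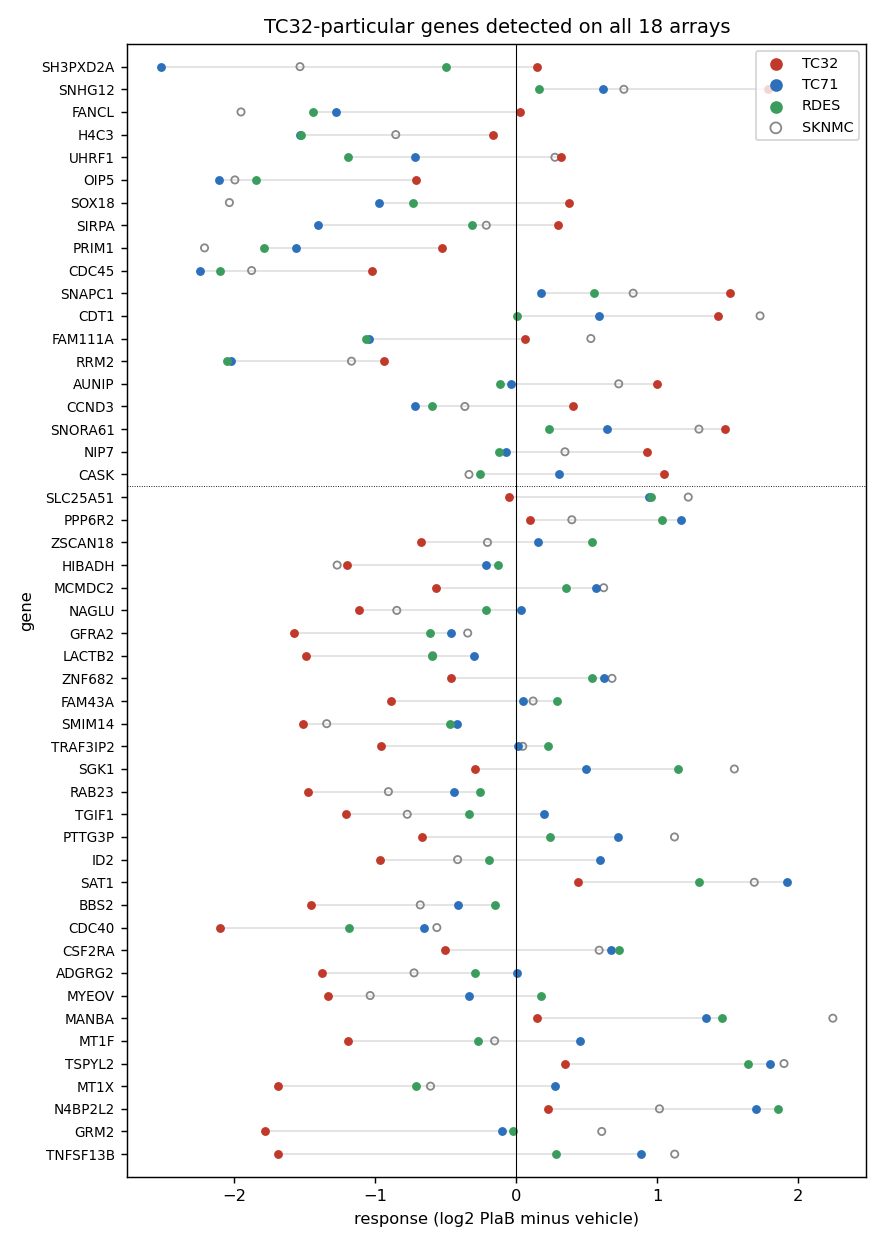
PlaB response (log2 PlaB minus vehicle, x axis) of the 49 particular genes detected on all 18 arrays, in descending order of the TC32 contrast, with 19 higher genes above the dotted line and 30 lower ones under it. Filled points are TC32 (red), TC71 (blue) and RDES (green), and open grey circles are SKNMC, whose responses the choice of genes did not use.

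Facts of the arrays that bear on these results are as follows. The number of detected probes averaged 14842 ± 269.5 in TC32 PlaB and 16870.7 ± 478.4 in TC32 vehicle arrays, 16427 ± 569.5 in TC71 PlaB and 17755.3 ± 919.7 in TC71 vehicle arrays, and 16078 ± 267.1 in RDES PlaB and 17401.7 ± 318.4 in RDES vehicle arrays (SD, n = 3 each). The PlaB effect on this number in TC32 minus the mean effect in the other lines was -702.7 probes. At a detection p under 0.01 it was -186.8. An exact two-sided permutation test of the treatment labels within lines gave p = 0.54 over 8000 regroupings. The labels were shuffled on counts that PlaB lowered in every line (-2028.7 in TC32, -1328.3 in TC71 and -1323.7 in RDES). The test therefore cannot decide whether the fall in TC32 was larger. The part of this number in the contrasts was not tested. Arrays correlated at 0.988 to 0.993 if they shared line and treatment, at 0.949 to 0.96 if they shared the line only, and at 0.888 to 0.939 across different lines. Of 13 Ewing sarcoma markers, 11 or 12 were detected on all 3 arrays of each of the 6 groups, with XG in none of them. In the contrast 2 of 12 measured were higher (16.7%) and 1 lower (8.33%), against 9.03% higher and 7.98% lower of all genes. Epithelial markers were detected in 2 or 3 of 15 cases, blood cell markers in 2 to 4 of 17 and endothelial markers in 0 or 1 of 12. In the contrast 0 of 4 epithelial, 1 of 6 blood cell (16.7%) and 1 of 2 endothelial markers (50%) measured were called. Both were lower, against 7.98% of all genes: CD14 at -0.77 and ESAM at -1.02. ESAM did not fall in TC32, where it averaged 4.43 with PlaB and 4.17 with vehicle and was detected on 1 and 0 arrays. It rose at least 2.28-fold in TC71. The summed intensity of the endothelial list was 277.7 to 287.6 in TC32 PlaB and 274.5 to 276.5 in TC32 vehicle arrays, 299.9 to 306.9 in TC71 PlaB and 279.6 to 288.7 in TC71 vehicle arrays, and 296.2 to 314.7 in RDES PlaB and 274.2 to 297.7 in RDES vehicle arrays. The defining markers PECAM1 and PTPRC were not among the markers detected on all 3 arrays of any of these groups. The part of such markers in the results was not tested.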

How the data were processed

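Total RNA of 24 arrays was labelled with biotin and hybridised to Illumina beadchips, per the labels' protocols. The deposited table holds 1 probe intensity per array, linear and not normalised, per the file headers, with values from 56.3 to 8894.5. Beside it the authors deposited a detection p-value per probe and array. Software credited in the submitters' processing notes comprises lumi, GenomeStudio and R 3.0.2, with no account of steps. The deposited log2 series matrix was not used here.

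The intensities went through limma 3.58.1 (R 4.3.3): neqc (background from detection p-values, offset 16, quantile normalisation), then a filter that asked for a detection p under 0.05 throughout the 3 arrays of some group, which kept 17557 of 47323 probes. A group-means model over 24 arrays (16 residual and 13.4 prior degrees of freedom) gave every contrast, with two-sided p-values adjusted by Benjamini-Hochberg. The fit was checked on simulated data with independent normal noise. That check cannot show how background correction, normalisation or dependence between samples affect the real contrasts. A gene was read from its brightest tested probe, with symbols from the supplied annotation. Precision is limited by the number of arrays.

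The members and the 27 gene lists were chosen with earlier results of these data known, so lists carry counts and medians and no test. Genes were named by rule: the 12 highest and 12 lowest particular genes detected on all 18 arrays, those detected in TC32 only or lost in 1 TC32 treatment, those with opposite responses, preset genes, and up to 4 of each list. Alternatives covered background, offset, normalisation, filters, arrays in the fit, array weights, replicate blocks and each array left out. Correlations of the deviations of same-numbered samples lay between -0.041 and 0.054. In RDES the same number gave the best match for each replicate, at 0.015, 0.005 and 0.019. Whether the numbers pair samples cannot be decided from these values, and the fit did not pair them.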

Additional observations from a re-analysis of the deposited data

Results flagged for a closer look

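These genes were detected on all 18 arrays and were called in one direction in TC32 and in the other direction in both TC71 and RDES, and they are the 8 with the largest TC32 contrast of 22 such genes. Each difference was tested as a contrast in limma, with adjusted p-values over all tested probes. UHRF1 had 1.2718, while its second probe gave 0.77 and a TC32 rise that was not called (0.27). SOX18 had 1.2306 and CCND3 1.0597. EIF2B5, a subunit of the exchange factor for eIF2, had 0.9698: it rose by 0.39 in TC32 and fell by 0.74 in TC71 and 0.43 in RDES. SRP19, a protein of the signal recognition particle, had 0.9442: it rose by 0.45 in TC32 and fell by 0.55 in TC71 and 0.44 in RDES. ZNF682, a zinc finger gene, had -1.0412, with a fall of 0.46 in TC32 and rises of 0.62 in TC71 and 0.54 in RDES, but its other probe was called in the opposite direction at 0.86. SGK1 had -1.1155, and its other probes ran the same way. CSF2RA had -1.2035, with a second probe at -0.47 that was not called.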

How the results depend on the processing

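All 98 particular genes kept the sign of their contrast in every alternative that tested them. A kept sign says little, since the genes were chosen for large contrasts on these same arrays. The number past the 2-fold limit moved. Of the 98 genes, 20 stayed particular without background correction, 30 with an offset of 50 and 77 under median centring. Particular probes numbered 38 higher and 98 lower in the setting used, against 10 and 15 without background correction, 12 and 26 with an offset of 50, 19 and 217 under median centring, and 22 and 45 among probes detected on all 18 arrays. The higher ones numbered 61 when arrays were centred on detected probes only and 64 under cyclic loess. Median centring shifted the median contrast of all genes to -0.12, by more than 0.1, and gave 438 higher and 1865 lower probes in the TC32 contrast against 1304 and 1305, 754 higher against TC71 and 283 higher against RDES. In TC32 alone it gave 1181 up and 6301 down, and centring on detected probes gave 5936 up. Among probes detected on all 18 arrays, 849 were lower in the contrast, 601 lower against RDES and 2484 down in TC32. The causes were not tested. The last case also started from a smaller number of probes.

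Leaving out 1 array at a time gave 955 to 1247 higher and 946 to 1279 lower probes in the contrast, and 35 to 46 higher and 90 to 125 lower particular probes, with 85 to 96 of the 98 genes kept. With the replicate number as a block within lines, the contrast gave 1194 higher and 1234 lower probes, and with a block over lines 1277 and 1306, with 97 and 98 of the 98 genes kept. The block within lines ended 3 named calls: SNHG5 (adjusted p = 0.052), SF3B4 (0.065) and NKX2-2 (0.051). Over all named genes, calls were lost 73 times with 1 array left out and 46 times under the other settings, most often under median centring, where E2F7, MYC, PHF5A, XBP1, MAD2L1, BID, PHLDA3, PTBP1, HSPA8, DNAJA1, SNHG5, SF3B4 and HNRNPH3 were among them. No called gene changed sign. Values that changed sign belonged to genes that were not called: under median centring CCND1 (-0.10), HNRNPH1 (-0.15), ATF3 (-0.16), EWSR1 (-0.16) and BBC3 (-0.14), and BBC3 with quantile normalisation within lines (-0.015). With 1 array left out, EWSR1 ran between -0.0687 and 0.1974 and BBC3 ran between -0.1091 and 0.1485. Signal over background limits genes near the level of undetected probes.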

Other observations

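The metallothioneins MT1E and MT2A had contrasts of -0.66 (adjusted p = 0.025) and -0.80 (adjusted p = 8.7e-04), on the same side as MT1X and MT1F, while MT1G (0.15) and MT1M (-0.22) were not called. This group was looked at after the values of MT1X and MT1F were seen. Apart from SNORA61, the snoRNAs encoded within SNHG12 with a tested probe were SNORD99, at 0.44 (adjusted p = 0.023), and SNORA16A, at 0.16 (adjusted p = 0.58), so the members of this 1 host did not share the size of the host's contrast of 1.40. MARCHF4, a ubiquitin ligase of the membrane-bound MARCH family, named after its values were seen, read 8.20, 8.10 and 7.75 in TC32 with PlaB, against 6.11, 6.23 and 6.03 with vehicle, and was detected on no array of TC71 and on 2 PlaB and 1 vehicle arrays of RDES.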
